A study of Drosophila melanogaster with 3 samples.

Results

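Of 3811 reproducible binding summits of Senseless in the fly embryo, 521 lay between genes and far from any transcript start, a share of 13.7% (exact 95% interval 12.6 to 14.8). A summit is the base of highest signal that the authors gave for each peak, and the reproducible summits are those of the authors' peak list on the dm6 build that passed their irreproducible discovery rate threshold. A summit was kept if it lay outside every annotated gene of any biotype, non-coding RNAs and transposable elements included, and more than 500 bp from every annotated transcript start. These are called the intergenic summits. The other reproducible summits comprised 1880 within 500 bp of a start, called promoter summits, 1328 in introns and over 500 bp from every start, called distal intronic summits, and 82 in exons. Chromatin immunoprecipitation and sequencing was done with an antibody against green fluorescent protein (GFP) on whole embryos of Drosophila melanogaster aged 4 to 14 hours by the description of their source, males and females together, from a transgenic line that carries sens with GFP fused to the C terminus of its protein. The labels' separate age entry holds a number of hours far beyond embryonic life and was not used. The series has 1 group of 3 biological replicates, so it holds no contrast between conditions, and the values below compare the intergenic summits with other summits and with other intergenic sequence. Only peak lists were used, so the depth of each library is unknown, and the signal value of a peak has no stated scale and serves here to rank peaks, with rank 1 the strongest. Whole embryos mix all cell types, so strong binding in few cells and weak binding in many cannot be told apart. When each replicate's own 3811 strongest peaks were sorted in the same way, 503, 518 and 533 summits were intergenic, a share of 13.6% ± 0.39 (SD, n = 3).

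Senseless is a zinc finger transcription factor of the Gfi family that is best known for its role in the precursor cells of the peripheral nervous system, where it sustains proneural gene activity, and it also acts in the embryonic salivary gland. It can repress genes by binding DNA directly through a core of the letters AAATCA, and it can activate others together with proneural proteins bound at E-boxes. In flies, as in other animals, many genes that control development are switched on by enhancers that lie in long stretches of sequence between genes, often at a distance from the start they act on.

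The sequence at the intergenic summits was mostly rich in A and T. The windows below hold the summit and 50 bases to each side of it, and are given 5′ to 3′ on the plus strand of dm6 from the RefSeq assembly. They were chosen by hand from the strongest intergenic summits and from those beside genes of Senseless biology, to show how the sequence varied. Such a choice cannot show how often the core appears. Capitals mark AAATCA or its reverse complement. Here and below, a summit is named by coding genes at the borders of its gap. Non-coding RNA genes or transposable elements can lie between the summit and the named gene.
Between COX7AL2 and CG31668, rank 15, chr2L:2202351-2202451: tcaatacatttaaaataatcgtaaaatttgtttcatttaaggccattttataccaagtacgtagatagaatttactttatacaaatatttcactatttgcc
Between mtSSB and tara, rank 17, chr3R:16222444-16222544: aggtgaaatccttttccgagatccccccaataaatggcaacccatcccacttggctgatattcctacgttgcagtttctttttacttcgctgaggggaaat
Between mtSSB and tara, rank 84, chr3R:16224442-16224542: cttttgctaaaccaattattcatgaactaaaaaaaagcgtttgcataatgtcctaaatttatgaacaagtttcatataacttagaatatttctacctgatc
Between CG13896 and hng3, rank 37, chr3L:724649-724749: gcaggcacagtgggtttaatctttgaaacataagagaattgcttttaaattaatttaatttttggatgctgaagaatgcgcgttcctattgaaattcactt
Between slp1 and slp2, rank 139, chr2L:3832459-3832559: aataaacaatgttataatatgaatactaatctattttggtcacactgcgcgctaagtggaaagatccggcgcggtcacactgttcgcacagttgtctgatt
Between Ids and sty, rank 227, chr3L:3396217-3396317: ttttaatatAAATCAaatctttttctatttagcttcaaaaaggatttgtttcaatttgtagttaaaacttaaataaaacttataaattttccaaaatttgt
Between Glut3 and abd-A, rank 233, chr3R:16798825-16798925: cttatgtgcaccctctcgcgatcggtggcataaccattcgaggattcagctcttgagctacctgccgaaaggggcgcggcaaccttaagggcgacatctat
Between sens-2 and Rca1, rank 518, chr2L:6841496-6841596: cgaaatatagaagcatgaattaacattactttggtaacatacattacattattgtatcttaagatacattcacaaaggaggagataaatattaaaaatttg
Between E(spl)mbeta-HLH and E(spl)malpha-BFM, rank 610, chr3R:26009041-26009141: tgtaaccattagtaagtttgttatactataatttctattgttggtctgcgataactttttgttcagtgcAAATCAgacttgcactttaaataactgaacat
Of these windows, those beside sty and between the E(spl) genes held the core once each, and the others did not. The stronger summit beside sty, of rank 176, is not shown, and its window lacks the core. Their GC content ran from 16.8% beside sty to 55.4% beside abd-A, with 23.8% at the strongest of them.

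The low GC content held for most intergenic summits. The mean GC content was 33.8% within 50 bp of the 521 summits and 42.7% in windows of the same length centred 500 bp to each side, and it was lower at the summit than in its flanks for 78.5% of them. All intergenic sequence that meets the rule averaged 41.1%. In the replicates' own lists the summit windows had 34.3% ± 0.43 and the flanks 42.3% ± 0.08 (SD, n = 3), with the summit lower in 3 of 3 replicates. The exact two-sided sign-flip test over the 3 replicates gave p = 0.25, the smallest it can give. Promoter summits, at 35.1% and 45.2% in their flanks, and distal intronic summits, at 33.0% and 41.9%, had a dip of like size. The dip was narrow and sat between shoulders of higher GC, with a mean of 33.1% at the intergenic summit, 45.6% at 250 bp to its left and 40.7% at 750 bp.

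**Figure D1:**
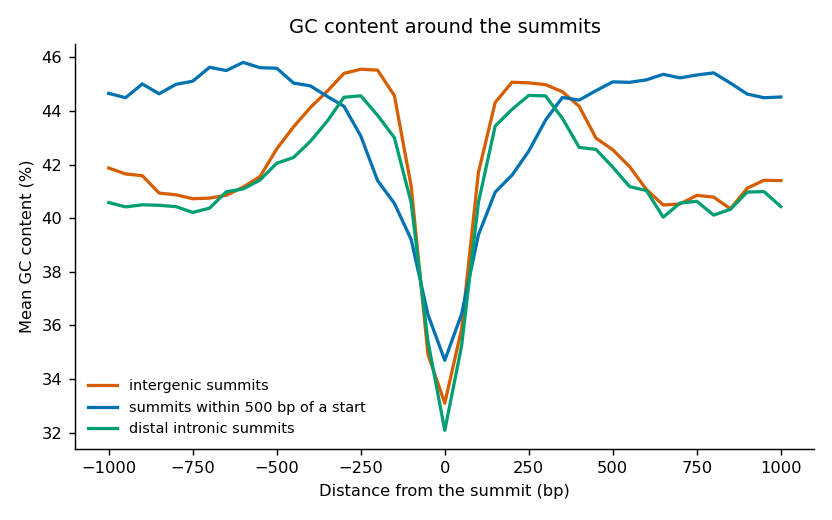
Mean GC content (%) against distance from the summit (bp) for the 521 intergenic, 1880 promoter and 1328 distal intronic summits, 1 line per class. All lines are lowest at the summit, and the intergenic and distal intronic lines have shoulders of higher GC at about 250 bp on both sides, which the promoter line lacks.

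The Senseless core stood at the intergenic summits at a share close to that of their surroundings. On either strand and no more than 50 bp from the summit, AAATCA was found at 67 of the 521 (12.9%, exact 95% interval 10.1 to 16.0), against 14.2% of all 3811 reproducible summits, 11.2% of the flank windows and 12.0% of all windows of the same length cut from the intergenic sequence that meets the rule. Promoter summits held it in 13.6% and distal intronic summits in 15.7%. The gain of the summit over its flanks was 1.09, 2.90 and 0.47 percentage points in replicates 1, 2 and 3 (exact two-sided sign-flip test, p = 0.25, the smallest it can give). Over the reproducible list the gain was 1.63 points, but keeping only summits found among the strongest peaks of the other replicates gave a loss of 0.25 points without replicate 1, a loss of 0.27 without replicate 2 and a gain of 2.48 without replicate 3. Other orders of the same 6 letters gained more: of 30 rearrangements, the core ranked 27, their median gain was 3.74 points and the highest, CAAATA, gained 9.60. The longer form AAATCACTG was found at 0 of the 521, which allows a share of up to 0.71%.

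Among sites of other factors, E-boxes were fewer at the summits than beside them. Any E-box, written CANNTG, the site of proneural and other helix-loop-helix proteins, lay within 50 bp of 36.3% of the intergenic summits and in 44.3% of their flank windows, against 35.3% of all reproducible summits and 38.9% of all intergenic windows that meet the rule. The difference was −6.76, −4.44 and −8.26 points in replicates 1, 2 and 3 (exact two-sided sign-flip test, p = 0.25, the smallest it can give). Among E-boxes, CAGCTG was found at 12 summits (2.30%) and CAGGTG at 8 (1.54%), against 3.44% and 2.15% of all reproducible summits. The GATA site AGATAA was found at 6.53% of the summits and 5.09% of the flanks, and TGATNNAT, a site of Extradenticle with Hox proteins that can overlap the core on its other strand, at 8.06% and 6.72%. GAGAG, the letters that GAGA factor binds, stood at 9.98% of the summits, 13.3% of the flanks and 10.2% of all reproducible summits. The Zelda site CAGGTAG was found at 4 summits (0.77%), against 0.42% of all reproducible summits. The Grainyhead site AACCGGTT was found at 0, which allows up to 0.71%, against 0.10% of all reproducible summits. GCCAT, the core that the Polycomb recruiter Pho binds, was found at 87 summits (16.7%), against 18.7% of flanks and 14.3% of all reproducible summits. Of all intergenic windows that meet the rule, 20.5% held it. GC content differed between summit and flank as well, as given above, and its part in these counts was not tested. A match describes letters in the window and not a bound site.

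The strongest intergenic summits were among the strongest of the genome in each replicate. At the top stood a summit at 2R position 13035348 between Su(z)2, a Polycomb group gene, and CG13323, with a signal value of 2334, rank 6 in the reproducible list and ranks 9, 5 and 6 in replicates 1, 2 and 3. It lay nearer to CG13323 than to Su(z)2, and 6023 bp from the nearest start, that of a transposable element. The next, at 2L position 2202401, 1320 bp from the end of CG31668, took ranks 15, 10 and 34. A summit at 3R position 16222494 ranked 17, 20 and 16, in the gap before tara, which encodes a cell cycle regulator that interacts with trithorax group genes. These are the only intergenic summits among the 20 strongest of the list, where 12 were promoter summits.

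Further strong summits bordered genes of varied function. The summit between blw, the alpha subunit of the mitochondrial ATP synthase, and CycB, a mitotic cyclin, at 2R position 22802960, ranked 33, 21 and 15. In the gap between CG13321 and Psc, a Polycomb group gene related to Su(z)2, the summit at 2R position 12958293 ranked 73, 67 and 133. It lay nearer to CG13321 than to Psc. A second summit before tara ranked 81, 73 and 111. The summit beside RasGAP1, a Ras GTPase-activating protein, ranked 79, 55 and 60. That in the gap before AdamTS-B, a secreted metalloprotease, at X position 5696545, had rank 93 in the reproducible list. The non-coding gene lncRNA:CR42794 lay between it and AdamTS-B. Between slp1 and slp2, the paired forkhead genes of segmentation, a summit at 2L position 3832509 ranked 127, 118 and 191. All of these summits were within the strongest 200 of the list.

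**Figure D2:**
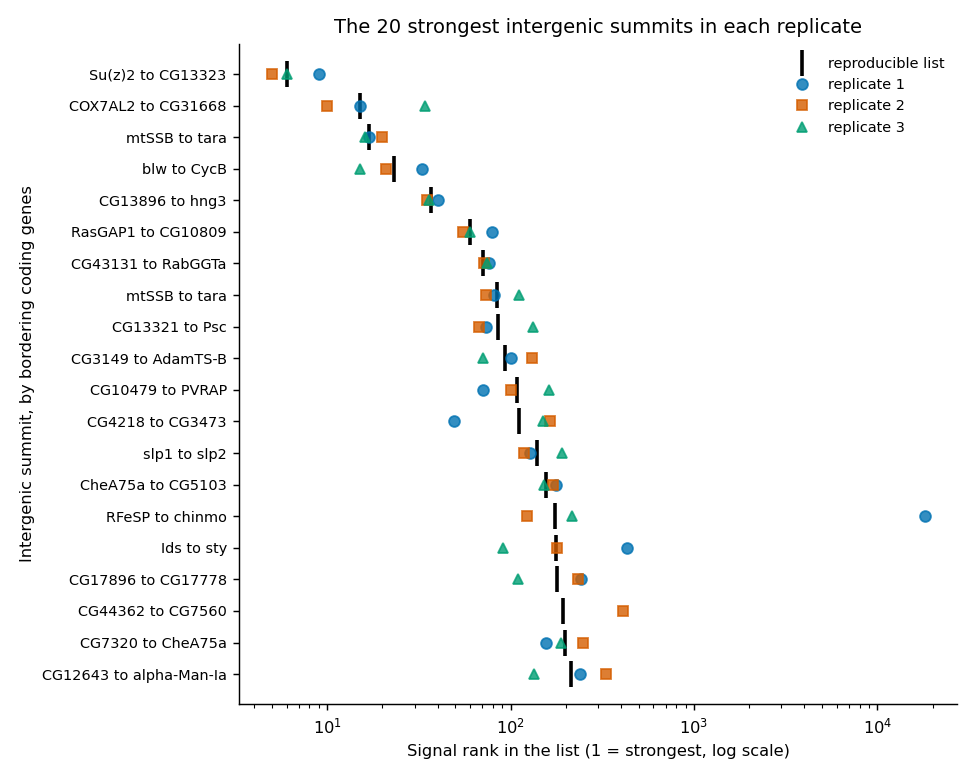
Signal rank (log scale, 1 is the strongest) of the 20 strongest intergenic summits in the reproducible list (bar) and in replicates 1, 2 and 3 (points), named by the bordering coding genes. Most sites have their 3 replicate ranks close together, RFeSP to chinmo has rank 18143 in replicate 1, and CG44362 to CG7560 has a peak over the summit in replicate 2 only.

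In that ranking 2 sites stood apart. The summit at 2L position 1638782, before chinmo, a BTB zinc finger gene of neuronal temporal identity, had rank 174 in the reproducible list and ranks 18143, 123 and 217 in the replicates. In replicate 1, another peak with its summit 19 bp away had rank 265. The summit at 3L position 11418477, between CG44362 and CG7560, had rank 193 and lay inside a peak of replicate 2 alone, with rank 411. Replicates 1 and 3 had summits 63 and 29 bp away with ranks 198 and 169. Both sites therefore had a strong peak close by in every replicate, although its interval did not cover the summit in replicate 1 at the first site and in replicates 1 and 3 at the second. Of the 521 summits, 4 lacked a covering peak in at least 1 replicate. The other 3 were between CG3225 and CG15628 (rank 3111), between Gr93a and Gr93b (rank 3284) and between croc and Neu2 (rank 3808).

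By median rank, intergenic summits had a lower place in the list than promoter and distal intronic summits. Their median rank was 2061, with quartiles of 1084 and 2801. Promoter summits had a median of 1899, with quartiles of 883.75 and 2837.25, and distal intronic summits 1856.5, with 1008.75 and 2878.25. The intergenic summits were thus behind at the median and the stronger quartile, but not at the weaker quartile. In replicates 1, 2 and 3 the median ranks were 2155, 2080 and 1996 at intergenic summits, 1817.5, 1833.5 and 1887 at promoter summits and 1928, 1861.5 and 1888.5 at distal intronic summits. The intergenic median was thus the weakest of these classes in every replicate. Their share showed no steady trend along the list. They made up 15% of the strongest 20 peaks, 10% of the strongest 100 and 12.1% of the strongest 1000. Among ranks 1906 to 2858 they made up 16.7%, and among ranks 2859 to 3811 they made up 12.9%. The weakest 5 were beside croc, a forkhead gene (rank 3808), Tollo, a Toll family receptor gene (3805), PVRAP (3802), nerfin-1, a zinc finger gene of neuron differentiation (3763), and CG7560 (3752).

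How often the replicates held intergenic summits, compared with other summits, depended on how many peaks were counted. A summit was counted as held where it lay inside one of a replicate's 3811 strongest peaks, and replicates 1, 2 and 3 held 81.6%, 87.5% and 86.4% of the intergenic summits (85.2% ± 3.2, SD, n = 3). Promoter summits had 84.4% ± 2.0 and distal intronic summits 84.4% ± 3.6. The difference from promoter summits was −1.19, 0.82 and 2.60 points, with a mean of 0.74 (exact two-sided sign-flip test, p = 0.75), and without replicate 3 its mean was −0.19. The difference from distal intronic summits was 1.23, 0.10 and 0.98 points (p = 0.25 in the same exact test, the smallest it can give). With only the strongest 50% of that number of peaks, the mean differences were −6.19 points from promoter and −5.42 points from distal intronic summits (p = 0.25 each in the same exact test), so the direction turned. All 3 replicates held 341 of the 521 (65.5%), against 64.3% of all reproducible summits, while 128 were held by 2 replicates, 52 by 1 and 0 by none. Among ranks 1906 to 2858, all 3 replicates held 63.5% of intergenic, 53.9% of promoter and 55.4% of distal intronic summits, and among ranks 2859 to 3811 they held 6.50%, 9.29% and 9.41%. The same replicates were pooled to make the reproducible list, so these shares are not independent of it.

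The rank of 1 intergenic summit typically differed by a factor of 1.86 between the replicate where it was strongest and the one where it was weakest, against 1.91 for promoter and 1.88 for distal intronic summits. Between pairs of replicates, Spearman's rho of the ranks was 0.70, 0.62 and 0.71 over the 517 intergenic summits with a peak in all. It was 0.74, 0.68 and 0.73 over promoter summits and 0.73, 0.69 and 0.74 over distal intronic summits, so it was lowest at intergenic summits in each pair. These are descriptions, since all points come from the same 3 libraries. The spread was widest at the chinmo summit described above. At 2L position 14513154, between noc and CG33648, the ranks were 1014, 670 and 8888, and a peak of replicate 3 with its summit 200 bp away had rank 535. At 2L position 3533303, beside IFT57, the ranks were 18606, 3971 and 1709, and replicate 1 had no other peak within 500 bp. At 2R position 23712527, beside Sesn, they were 7905, 1335 and 827, and at 3L position 13393791, between Poc1 and sens, 1460, 3795 and 11616.

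Intergenic summits thinned out with distance from transcript starts. They lay a median of 2752 bp from the nearest start, with quartiles of 1329 and 5671 bp, a minimum of 508 and a maximum of 36674 bp. A base of the intergenic sequence that meets the same rule, 31.5 Mb in all, lay a median of 4341 bp away. Between 500 and 1000 bp from a start there were 25.8 summits per Mb of such sequence (85 summits), between 2000 and 5000 bp 19.1 per Mb (170) and beyond 20000 bp 3.32 per Mb (11). The replicates' own lists gave 30.3, 26.4 and 26.4 per Mb in the nearest range and 2.72, 3.62 and 3.32 in the farthest, so these ranges did not overlap. Repeats that the assembly marks in lower case covered 19.3% of the nearest range and 47.9% of the farthest. Counted on unmarked bases alone, the densities were 27.8 and 5.21 per Mb. The nearest start belonged to a coding gene for 313 summits, a non-coding RNA gene for 142 and a transposable element for 47. The summit lay upstream of that start in 331 cases (63.5%, against 57.8% of the sequence), at 18.2 per Mb, and downstream in 190, at 14.3 per Mb.

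Near the limit of the rule, the 5 summits just inside lay 508, 513, 520, 521 and 521 bp from a start, with ranks 178, 2135, 1249, 3020 and 3598. Those just outside it lay 498, 489, 482, 481 and 480 bp away, with ranks 3354, 1323, 1701, 3033 and 1692. With a limit of 0 bp the rule would keep 1484 summits, and with 2000 bp it would keep 318.

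The summits farthest from any start lay in long gaps. The gap of 75047 bp between NijA, a ninjurin family gene, and CG43245 held the farthest, at 36674 bp from a start (3L position 10735251, rank 2718), and also a summit of rank 422 at 31876 bp and one of rank 2230 at 26190 bp. Between vvl, a POU homeodomain gene of the trachea and nervous system, and Prat2, summits of ranks 2423 and 2283 lay 31936 and 26227 bp away. The gap between salr and salm, the paired spalt zinc finger genes, had 1 at 25393 bp (rank 2568), and that between B-H2 and B-H1, the paired Bar homeodomain genes, 1 at 21366 bp (rank 2659). Between grim and rpr, genes that trigger apoptosis, a summit at 3L position 18348775 lay 24790 bp from any start with rank 827, and ranks 600, 902 and 1081 in the replicates. It was the strongest of the 10 farthest but for that of rank 422. The remaining 2 of the 10 were between AOX4 and CG43335 and between Tollo and Best4.

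Gaps between divergent genes held intergenic summits at the highest density. With genes of any biotype as borders, 139 summits lay in gaps whose genes point away from each other, 272 in gaps whose genes point the same way and 110 in gaps whose genes point towards each other. Per Mb of sequence that meets the rule these were 20.3, 16.5 and 14.4. The replicates' own lists gave 19.8 ± 0.81, 16.5 ± 0.37 and 14.4 ± 0.81 per Mb (SD, n = 3), and the divergent values did not overlap with the others. The ratio of divergent to convergent gaps was 1.42, 1.31 and 1.42 in replicates 1, 2 and 3. With coding genes alone as borders the densities were 23.4, 16.0 and 14.0 per Mb and the ratio was 1.66. Each side of a divergent gap ends in a start, so distance from starts and orientation move together, and their parts were not separated.

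The chromosome arms differed in density. Per Mb of intergenic sequence that meets the rule, 2L had 21.0 summits, 3L 19.8, 3R 16.3, 2R 12.5 and X 10.4. On X, the replicates' own lists gave 9.14, 10.2 and 11.7 per Mb, below the lowest replicate value of 2L, 2R, 3L and 3R, which was 12.2 on 2R. As a share of all reproducible summits of the arm, intergenic summits made up 48 of 682 on X (7.04%), against 17.7% on 2L, 10.9% on 2R, 19.7% on 3L and 12.3% on 3R. The small arm 4 had 3 of 11, which on its 0.062 Mb of sequence came to 48.6 per Mb, a value that rests on those 3 summits. On bases not marked as repeats, the densities were 12.3 per Mb on X, 14.5 on 2R, 16.3 on 3R, 20.4 on 2L and 20.5 on 3L, so X had the lowest density of these 5 arms by either count. The embryos were of mixed sex, and the dose of X in the sample was not measured.

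**Figure D3:**
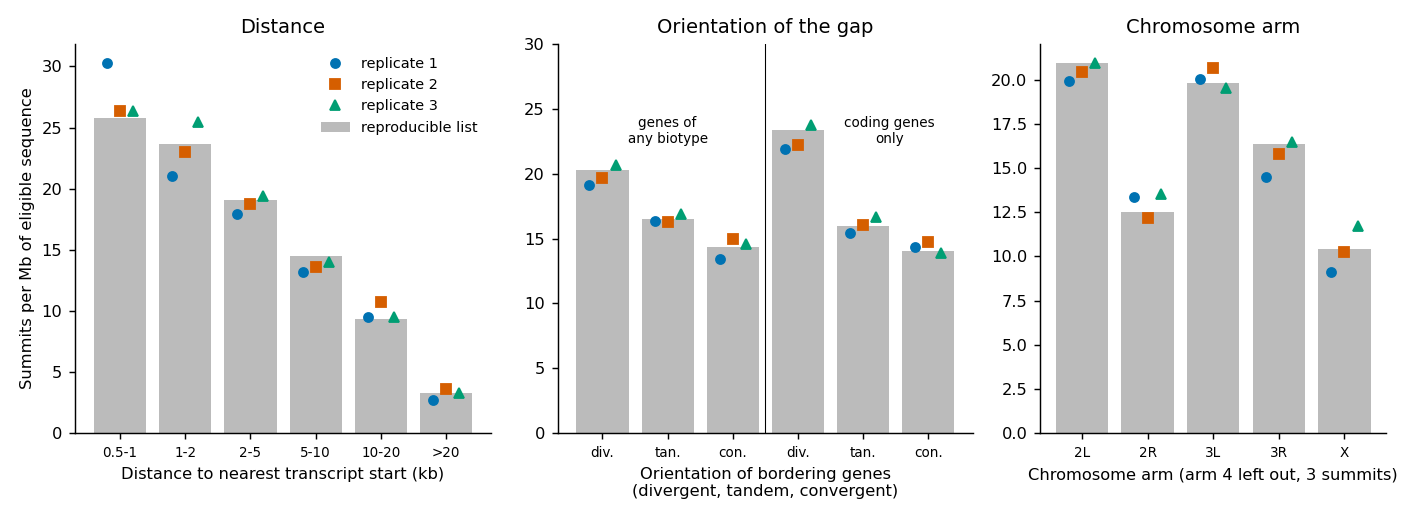
Intergenic summits per Mb of intergenic sequence that lies over 500 bp from every start, by distance to the nearest start (kb), by orientation of the gap with genes of any biotype or coding genes only as borders, and by chromosome arm. Bars give the reproducible list and points the 3811 strongest peaks of replicates 1, 2 and 3. Density is highest next to starts and in divergent gaps and lowest beyond 20 kb. Of the 5 arms drawn, 2L and 3L have the highest density and X the lowest, and arm 4, with 3 summits, is not drawn.

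Intergenic summits lay mostly in long gaps, and some gaps held several. The 521 lay in 346 gaps between neighbouring coding genes, 6.43% of the 5378 gaps that hold sequence meeting the rule. Those gaps were long, with a median of 13123 bp against 1731 bp for all such gaps. A single summit stood in 242 gaps and more than 1 in 104 gaps, which together held 279 summits. Whether summits gathered beyond what gap length gives was not tested. Of all gaps, that between hng3 and CG13898, 47937 bp on 3L, held most, with 10 summits at ranks between 371 and 2781. The gaps on either side of it held 4 each, including the summit of rank 37 between CG13896 and hng3. The gap between CG44362 and CG7560 held 8, and that between Ids, a lysosomal sulfatase gene, and sty, an antagonist of receptor tyrosine kinase signalling, held 6. The gaps before chinmo, between noc and CG33648 and between NijA and CG43245 held 5 each. All 5 beside NijA were among the strongest peaks of all 3 replicates.

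**Figure D4:**
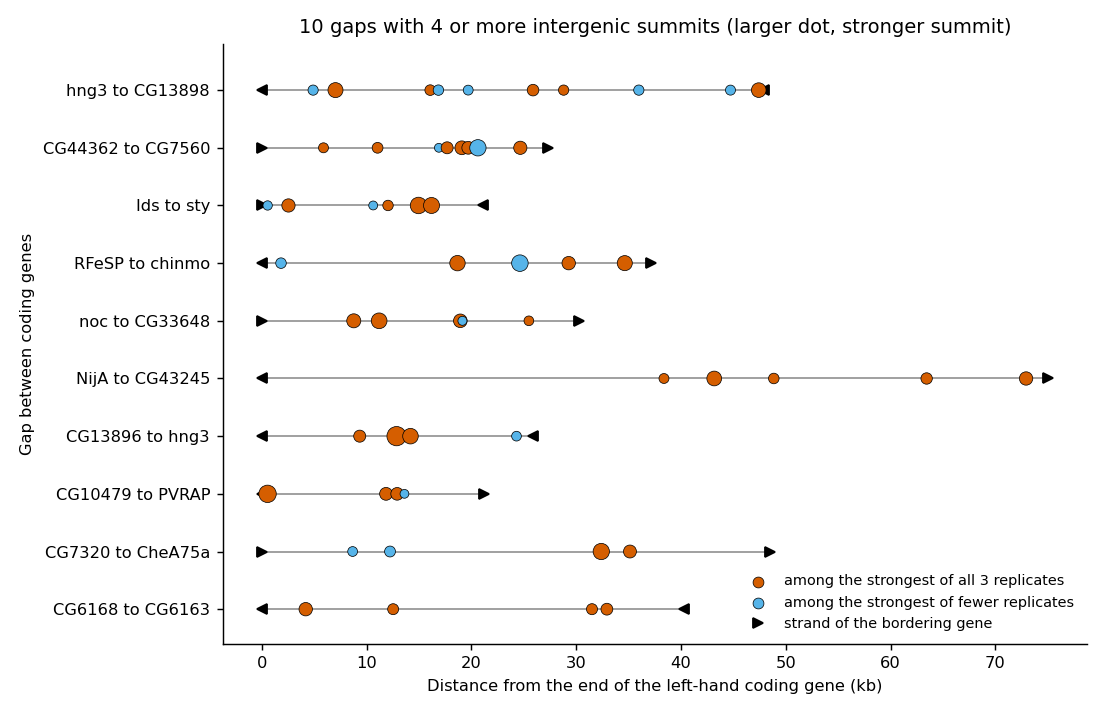
Position of each intergenic summit in 10 gaps between coding genes, as distance (kb) from the end of the gene at the left, the one with the lower coordinates. They are the 6 gaps with 5 or more summits and, of the 11 gaps with 4, the 4 whose best summit ranks highest. Arrowheads show the strand of the bordering genes, larger dots are stronger summits, and colour tells summits among the strongest 3811 of all 3 replicates from those in fewer. In the gap between Ids and sty the summits of ranks 176 and 227 lie in the right part, towards sty, and in the gap beside NijA none lies in the first 38 kb.

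Close clusters were few. Summits were chained where the next intergenic summit lay within 3000 bp, which left 390 alone, 76 in pairs and 55 in 17 clusters of at least 3. Only 27 summits were in such clusters when those found among the strongest of replicates 2 and 3 were kept, 24 with replicates 1 and 3 and 24 with replicates 1 and 2. The largest cluster, beside CG7560, had 5 summits within 3725 bp with ranks 3752, 1351, 646, 987 and 193. Beside sty, 4 summits within 5567 bp had ranks 3702, 2301, 176 and 227. Between Wnt4 and wg, 2 genes for Wnt ligands, 4 summits within 5368 bp had ranks 1405, 2347, 2265 and 3665, all on the wg side at 8178 to 13546 bp from its start. Clusters of 3 lay between COX7AL2 and CG31668 (ranks 312, 805 and 15), before tara (2995, 17 and 84) and between Doc2 and Doc1, T-box genes of the amnioserosa and heart (927, 817 and 1491). Counting all reproducible summits as neighbours, 184 of the 521 (35.3%) had another within 3000 bp, against 31.2% of promoter and 40.7% of distal intronic summits. Neighbouring summits can share a peak, and in 2 pairs both summits lay inside 1 peak in each replicate.

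Intergenic summits bordered many genes that control development. Over all annotated coding genes, 636 of 13945 (4.56%) bordered a gap with an intergenic summit, and of 208 genes in 14 lists of developmental regulators and effectors 50 did (24.0%). Many genes have no sequence that meets the rule beside them and could not border one. Among genes that have some, 636 of 7686 coding genes (8.27%) and 50 of 171 list genes (29.2%) did. Of 3 further symbols of these lists, h, dys and Dl, the annotation has the genes as hry, dysf and Delta, and with these added the count was 52 of 211 (24.6%). These genes also had more sequence that meets the rule beside them, a median of 7530 bp against 1123 bp among genes with any. Per Mb of such sequence there were 31.5 summits beside list genes and 17.4 beside all coding genes. In the replicates' own lists the densities were 30.4 ± 0.84 and 17.3 ± 0.50 per Mb (SD, n = 3), a difference larger than the spread between replicates. With hry, dysf and Delta added, the list genes had 31.4 per Mb and 30.3 ± 0.75 in the replicates' own lists (SD, n = 3). With the gene of the nearest start in place of the bordering genes, 26 list genes were counted (12.5%), against 254 of all coding genes (1.82%). The lists were chosen with earlier results of these data known, so their counts describe these genes and are no independent support.

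Among genes of sensory organ precursors, 7 of 24 bordered an intergenic summit, at 48.6 summits per Mb in the reproducible list. The replicates' own lists gave lower values, 38.9, 38.9 and 34.0 per Mb (37.3 ± 2.8, SD, n = 3). The gene sens itself had 3 in the gap towards CG10222, at 2079, 2279 and 5339 bp from the nearest starts, with ranks 1093, 3108 and 3274, and 1 on its other side of rank 3379. The first pair lay 200 bp apart within the same peak of each replicate, with ranks 1009, 1274 and 1174. Its paralog sens-2 had 1 in the gap towards Rca1, at 2L position 6841546, with rank 518 and ranks 755, 618 and 373 in the replicates. Others bordered cpo, an RNA-binding protein gene of the peripheral nervous system (rank 1339), and Tom, a Bearded family gene (rank 1964). Of 19 genes of Notch signalling and the E(spl) complex, 3 did so, and the summit between E(spl)mbeta-HLH, a helix-loop-helix repressor, and E(spl)malpha-BFM, a Bearded family gene, ranked 610, with ranks 612, 485 and 784 in the replicates. Delta, which encodes a Notch ligand, bordered none.

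Summits also bordered genes of signalling and patterning. Of 16 genes of epidermal growth factor receptor signalling 4 bordered one, and sty had 6 summits, of which the strongest, at 3L position 3395028, ranked 176 and had ranks 432, 180 and 91. The others of that list were ed, an adhesion protein gene (rank 549), aop, an ETS repressor gene (rank 624), and vn, a ligand gene (rank 2071). Of the 10 summits that this list counts, 6 are those of the gap beside sty. Of 26 segmentation genes 11 did, at 37.0 per Mb and 35.6 ± 1.4 in the replicates' own lists (SD, n = 3), led by slp1 and slp2 with 2 summits between them. With hry, a pair-rule repressor gene, 12 of 27 did, at 36.6 per Mb, and the 2 summits between hry and SrpRbeta had ranks 1309 and 2172. A summit beside oc, a head gap gene, ranked 426, and 1 beside ptc, the Hedgehog receptor gene, ranked 462. Of 20 dorsoventral genes and genes of Dpp and Wnt signalling 3 did so, namely wg, Wnt4 and dpp (rank 2764). Their list had 45.2 per Mb, with the 4 summits between Wnt4 and wg counted for both genes. Of 10 Hox genes and cofactors 4 did, with the summit beside abd-A at 3R position 16798875 ranked 233, and 288, 375 and 116 in the replicates.

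Salivary gland genes bordered summits in 5 of 14 cases, among them the paired Pax genes eyg and toe, which share a gap with a summit of rank 1052, hth (rank 1419) and CrebA (rank 1486), an activator of secretory genes. Neuroblast genes did so in 5 of 16, with SoxN bordering 4 summits, the strongest of rank 1084. Cell death genes did in 3 of 12, namely rpr and skl, which share a gap with a summit of rank 763, and grim. Their density was 13.5 per Mb, below that of all coding genes. Also below it were the lists of trachea (2 of 10 genes, 11.9 per Mb, or 3 of 11 and 14.1 per Mb with dysf, whose summit ranked 3747), of gut, fat body and hemocyte (1 of 12, 11.2 per Mb) and of the ecdysone cascade (1 of 11, 11.0 per Mb). Mesoderm and muscle genes (3 of 20, 19.7 per Mb) and sensory neuron and glia genes (2 of 13, 23.2 per Mb) were above it. These values rest on few summits, so they do not order the lists firmly. The trachea (without dysf) and mesoderm and muscle lists had 4 summits each. The cell death list had only 2, both beside rpr. Each lies between 2 genes of that list and counts for both, so its density rests on a count of 4. Sensory neuron and glia had 3, and the gut and ecdysone lists had 1 each. The remaining lists were gene families without a role in patterning. Of 70 cuticle protein genes, 5 bordered a summit (7.14%), at a density above that of all coding genes and of the mesoderm and muscle list. Of 179 chemosensory receptor genes 7 did, at 13.8 per Mb, close to the cell death list. Of 88 ribosomal protein genes 2 did, at 4.88 per Mb, and of 115 histone genes 0. The histone genes had only 0.047 Mb of sequence that meets the rule beside them, too little for the 0 to be read as a lack. The lists of regulators and of other families thus overlapped in density.

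**Figure D5:**
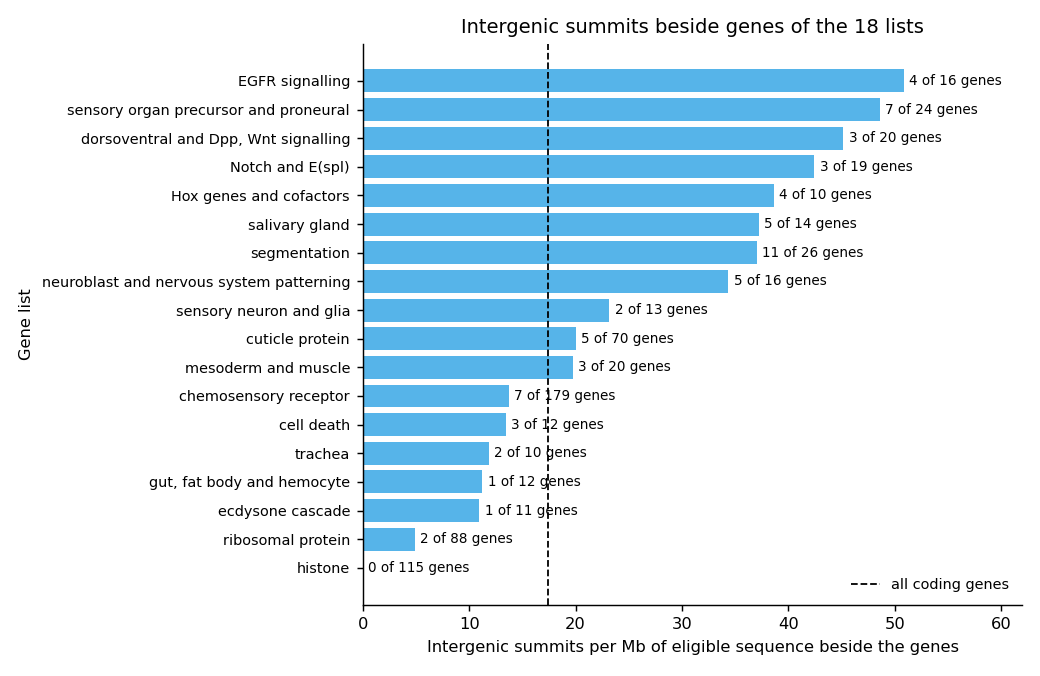
Intergenic summits per Mb of intergenic sequence that meets the rule beside the genes of each of 18 lists, with the number of list genes that border a summit, from the reproducible list. The bars leave out Delta, hry and dysf, with which the Notch, segmentation and trachea lists have 32.6, 36.6 and 14.1 per Mb. The dashed line gives 17.4 per Mb for all coding genes. A summit with genes of the same list at both borders counts for each of them, as does the sequence of its gap. This applies to the 4 summits between Wnt4 and wg in the bar of dorsoventral, Dpp and Wnt genes, 45.2. It also applies to the summit between the E(spl) genes in the Notch bar. The bar for epidermal growth factor receptor signalling rests on 10 summits, 6 of them in the gap beside sty, and the bar for sensory organ precursors, 48.6, is higher than the 37.3 ± 2.8 of the replicates' own lists (SD, n = 3). The ribosomal protein and histone lists have the lowest bars, from 2 and 0 summits, and the histone list has only 0.047 Mb of such sequence. The bars of the gut and ecdysone lists rest on 1 summit each.

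In 7 gaps with a summit, list genes stood on both sides, with 11 summits in all. They were the gaps of slp1 and slp2, Wnt4 and wg, grim and rpr, rpr and skl, toe and eyg, Dfd and Scr, and E(spl)mbeta-HLH and E(spl)malpha-BFM. In 44 gaps with 72 summits, 1 border was a list gene, and 295 gaps with 438 summits had none. With hry and dysf counted as list genes, these were 46 gaps with 75 summits and 293 gaps with 435. Most intergenic summits, the 3 strongest included, thus had no gene of these lists at either border.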

How the data were processed

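Analysis started from the authors' dm6 peak lists of the 3 replicates, of the pooled replicates and of the reproducible peaks, so peaks were called both per sample and on pooled samples. Which aligner and caller they used is not given in the sources used here. For each peak, the signal value deposited is a score of unstated scale. Replicate lists held 30000, 30000 and 27681 peaks and were compared on their 3811 strongest. Per the deposited text notes, no control is listed among the inputs of the dm6 lists. Nothing in the labels says how far replicates were independent beyond their being biological, so p-values describe these 3 samples only. They depend on the signs and relative sizes of the differences within the replicates and do not measure the spread.

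Genes came from Ensembl release 115 (23973 genes, 5809 of them transposable elements) and sequence from the RefSeq FASTA of the same assembly, whose arm lengths are those of dm6. Of 226 entries in the lists, 3 symbols (h, dys and Dl) had no match by current name. They are synonyms of hry, dysf and Delta in RefSeq, and values with these added are given beside the others. Densities are per Mb of sequence outside genes and over 500 bp from every start. Beside genes, the sequence and the summits of a gap count for both borders. Tests were exact two-sided sign-flip tests over the 3 replicates, and intervals are exact binomial ones that cover counting error over peaks only. Computation used Python 3.11.15 with numpy 2.4.6, pandas 2.3.3 and scipy 1.17.1, and was tested on simulated data.

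Members, lists and motifs were chosen with earlier results of these data known. Named were the genes beside the 20 strongest summits, the larger clusters, the 10 farthest, 5 most variable and 5 weakest summits, the 5 on each side of the distance limit and up to 4 genes per list. The gaps with most summits, those with list genes on both sides and the summits without a covering peak were named after their values were seen. The Pho core, bases not marked as repeats, genes without transposable elements and the match through synonyms were added after seeing the data.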

Additional observations from a re-analysis of the deposited data

How the results depend on the processing

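Of 81 alternative values, 55 stayed within 1.5 times the main count, within 1 SD over replicates or, for differences, kept their sign, though not always their size (the core gain was 0.21 to 3.07 points among them). The number of intergenic summits was 1484 with a limit of 0 bp, 318 with 2000 bp, 239 in the strongest 50% of the list and 1121 in the pooled list at 2 times the length, as the number of summits that could enter changed. Against 50% of each replicate's peaks, the difference in support was −6.19 points from promoter and −5.42 points from distal intronic summits, and leaving out each replicate gave −0.19 to 1.71 against promoter summits. The median rank was 2155 in replicate 1 and 2165 to 2327.5 as the mean of the other replicates' ranks. The ratio of divergent to convergent density was 1.66 with coding genes as borders, 1.52 with RefSeq, 1.28 and 1.24 with limits of 1000 and 2000 bp, 1.18 in the strongest 50%, 1.53 without transposable elements, and 1.22 to 1.41 without each replicate. Clusters held 3 summits at 1000 bp, 140 at 10000 bp, and 24 to 27 without each replicate. The gain in the core ran from −0.27 to 2.48 points without each replicate, and the list genes numbered 26 by nearest start. The cluster counts at 1000 and 10000 bp follow from the chaining distance. For the ratio, the core, the ranks and support, the cause was not tested. Depth is unknown, replicates 1 and 2 end at exactly 30000 peaks, and the sign-flip test over 3 replicates cannot go below p = 0.25. No paired analysis was possible because the 3 samples form 1 group, so no groups share replicate numbers. The sign-flip tests use differences taken within each replicate.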
